A study of Mus musculus with 8 samples.

Results

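The expression of 10 direct target genes of the transcription factor p53, Cdkn1a, Mdm2, Ccng1, Zmat3, Phlda3, Eda2r, Bax, Bbc3, Pmaip1 and Aen, was followed in pancreatic tumours of mice given saline or the peptide TLQP21. The genes were found by name in a table of read counts, 10 of 54532 genes, and all 10 were among the 18238 genes that passed a filter on low counts. They were picked by name as known targets, not by their values, although earlier results of the same data were known when they were picked. No member passed the test across all genes. Log2 fold changes (TLQP21 against Saline) lay below 0 for 8 of the 10, against 49.4% of all tested genes, and for 4 of the 10 without the libraries Saline 4 and TLQP21 4. Cdkn1a had the largest difference, 89.3 ± 20.03 CPM in Saline and 67.4 ± 10.8 in TLQP21 (SD, n = 4 per group; CPM are read counts divided by scaled library size). Bbc3, Bax and Aen were low in a single TLQP21 library.

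The tumours grew in the pancreas of C57BL/6 mice from implanted KPC cells, a mouse line of pancreatic ductal adenocarcinoma, and the mice received saline (4 libraries) or TLQP21 (4 libraries) for 2 weeks. TLQP21 derives from VGF, a precursor protein of nerve and endocrine cells. KPC models in general carry mutant Trp53, the gene of p53, but the labels give neither the alleles of this line nor the dose, age or sex of the mice, nor whether each library is 1 animal. The p-values therefore reflect library-to-library spread, some of which may be technical. Whole tumours were sequenced, and fewer cells of a type cannot be told apart from less RNA per cell. The labels describe the samples as cancer cells. All 7 epithelial marker genes (Krt8, Krt18, Krt19, Krt7, Epcam, Cdh1, Muc1) were detected in every library, at a sum of 6222 to 6930 CPM, beside fibroblast genes (3171 to 6643 CPM), macrophage genes (1020.0 to 1549 CPM) and acinar genes of the normal pancreas (10036 to 49785 CPM).

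p53 is a transcription factor that is kept low in resting cells by MDM2, a ubiquitin ligase that is itself a product of a p53 target gene. DNA damage and other stress free p53 from MDM2, and p53 then switches on genes that stop the cell cycle, repair DNA or start cell death through the mitochondria. Mutations of Trp53 in cancers usually destroy this switching, while the fibroblasts, vessels and blood cells of an implanted tumour come from the host.

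Depth ran from 28358465 to 33536087 counts per library. Libraries 1 and 2 of each group held 9960 to 10625 reads of Xist, which coats the silenced X chromosome, and libraries 3 and 4 held 2027 to 2247 reads of 4 Y-linked genes, so that each group held 2 libraries of each kind. Saline 4 and TLQP21 4 stood apart. Saline 4 had 2741 CPM of 11 immediate-early and heat-shock genes, against 1047 to 1473 in the other libraries, and 1082 CPM of 6 neutrophil genes, against 277 to 660 in the others. Saline 4 was also highest for acinar genes (49785 CPM, against 10036 to 27541 in the others) and fibroblast genes (6643 CPM, against 3171 to 4672). Its epithelial genes, at 6222 CPM, were lowest but close to those of Saline 3 at 6233 CPM. The macrophage genes of Saline 4 lay inside the range of the others. TLQP21 4 had fewer reads of GC-rich genes. With genes sorted by transcript GC content into 5 bins, its median difference from the mean of the other 7 libraries was -0.44 (log2) in the highest bin and 0.31 in the lowest. Saline 2 held 4465 CPM of hepatocyte genes, against 5.58 to 9.27 in the others.

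p53 binds DNA through a decamer consensus that usually occurs as an adjacent or near pair. RefSeq promoter windows of GRCm38.p6, from 250 bases before to 50 after a start site, were held for 8 of the 10 genes and searched for the exact consensus, which reads the same on both strands. It was found for 5 of the 8 genes (62.5%), against 2582 of 27025 genes with a window (9.55%). The 8 genes were picked as known p53 targets, so the higher share is no independent evidence. Some genes had several windows, and a gene counted if any of them matched. A pair of decamers with at most 13 bases between them was found for Cdkn1a and for 20 of all genes (0.0740%). The stretches upstream of the start site are shown 5′ to 3′ on the strand of the gene to let the matches be read in their context, with decamer matches in capitals; none overlaps an annotated exon.
Cdkn1a, chr17:29090891-29090952, plus strand: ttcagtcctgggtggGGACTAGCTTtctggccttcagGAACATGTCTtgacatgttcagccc
Mdm2, chr10:117710920-117710959, minus strand: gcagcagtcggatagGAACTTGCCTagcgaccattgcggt
Ccng1, chr11:40755447-40755486, minus strand: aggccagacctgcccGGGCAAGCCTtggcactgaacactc
Bax, chr7:45467075-45467114, minus strand: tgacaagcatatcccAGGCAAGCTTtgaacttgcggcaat

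The pair of exact matches of Cdkn1a began 73 bases before the upstream of its 2 start sites, with 12 bases between the decamers. The bases directly after the second decamer meet the consensus at all but their first position, and the exact search does not count them. Which of these stretches p53 binds was not tested. No match lay in the window of the other start site. The single decamers began 186 bases before the start of Mdm2, 185 before that of Ccng1 and 201 before that of Bax. The match of Aen lay inside an annotated exon of the gene. The windows of Bbc3, Phlda3 and Eda2r held no exact match, which says only that these letters are not in these windows.

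On GRCm38 the genes are spread over the genome and all are protein-coding. Cdkn1a (ENSMUSG00000023067) lies on chromosome 17 from 29090976 to 29100727, Mdm2 (ENSMUSG00000020184) on chromosome 10 from 117688875 to 117710758, and Ccng1 (ENSMUSG00000020326) on chromosome 11 from 40748552 to 40755311. Chromosome 7 holds Bax (ENSMUSG00000003873, 45461697 to 45466898), Bbc3 (ENSMUSG00000002083, 16308393 to 16318205) and Aen (ENSMUSG00000030609, 78895854 to 78911209). Zmat3 (ENSMUSG00000027663) lies on chromosome 3 from 32334792 to 32366014, Phlda3 (ENSMUSG00000041801) on chromosome 1 from 135766119 to 135769136, Eda2r (ENSMUSG00000034457) on chromosome X from 97333840 to 97377216, and Pmaip1 (ENSMUSG00000024521) on chromosome 18. An antisense gene overlaps Cdkn1a, with 284 reads over all libraries against 18559 for Cdkn1a, and the strand setting of the counting is not given in the sources used here.

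Per length of transcript, in TPM (reads divided by the gene length in the deposited table and by the library sum), the members spanned a wide range in the Saline tumours. Phlda3 was the most abundant at 124 ± 11.2 TPM (SD, n = 4). Bax at 81.6 ± 3.75, Ccng1 at 77.9 ± 9.01, Pmaip1 at 75.1 ± 10.98 and Cdkn1a at 72.0 ± 10.2 TPM followed, and neighbours in this order had overlapping SD ranges. Mdm2 stood at 36.5 ± 2.52 TPM, Bbc3 at 15.9 ± 1.71 and Aen at 13.9 ± 0.998, the SD ranges of the last pair again overlapping. Zmat3 at 5.38 ± 0.946 and Eda2r at 2.47 ± 0.226 TPM were lowest. In TLQP21 the order began with Phlda3 (131 ± 20.5 TPM) and ended with Eda2r (2.58 ± 0.187) as in Saline, and Cdkn1a stood at 57.6 ± 6.91 TPM.

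**Figure D1:**
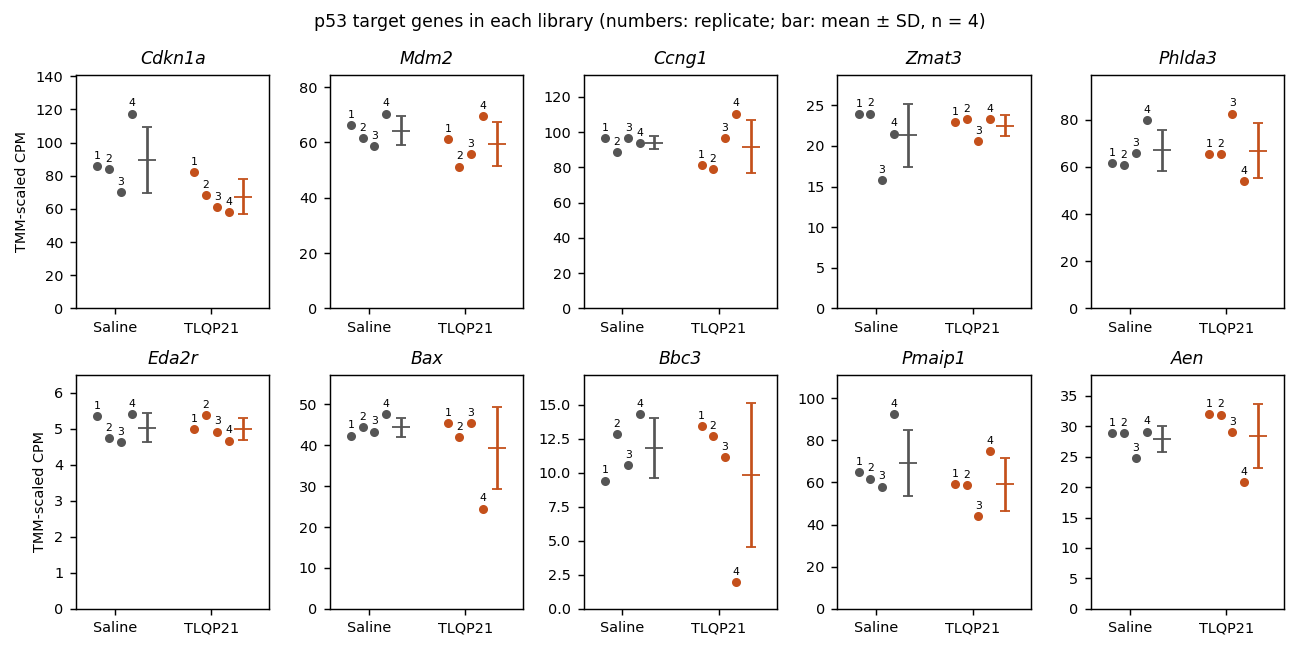
TMM-scaled CPM (vertical axes, from 0) of the 10 p53 target genes in each library, Saline in grey and TLQP21 in orange, with replicate numbers beside the points and mean ± SD (n = 4) beside each group. Cdkn1a is highest in Saline 4 at 117 CPM, and Bbc3, Bax and Aen are lowest in TLQP21 4, at 1.98, 24.5 and 20.9 CPM.

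The first members described act on the cell cycle, on p53 itself or on growth signalling. Cdkn1a encodes p21, the inhibitor of cyclin-dependent kinases through which p53 halts cells before S phase. It was at 85.7, 84.0, 70.1 and 117 CPM in Saline 1 to 4 and at 82.1, 68.4, 61.1 and 57.9 CPM in TLQP21 1 to 4. Saline 4 was the highest library and TLQP21 3 and 4 the lowest, and the groups overlapped only in that Saline 3 lay below TLQP21 1. The log2 fold change was -0.41 (SE 0.16, edgeR's quasi-likelihood test, unadjusted p = 0.0308, adjusted p = 1.0), with a 95% interval from 0.587-fold to 0.969-fold. Over 24 other settings the adjusted p ran from 0.409 to 1.0. Without Saline 4 the log2 fold change was -0.25, without Saline 4 and TLQP21 4 -0.19, and without TLQP21 4 -0.34. As a difference of mean log2 CPM it was -0.18 among libraries 1 and 2 (Xist). Among libraries 3 and 4 (Y-linked genes), which include Saline 4 and TLQP21 4, it was -0.61. The interaction of the treatment with this split was -0.48 (SE 0.31, adjusted p = 0.851 by edgeR).

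The level of Cdkn1a moved with that of neutrophil genes. The sum of S100a8, S100a9, Csf3r, Cxcr2, Retnlg and Ltf was 564, 660, 412 and 1082 CPM in Saline 1 to 4 and 551, 382, 317 and 277 CPM in TLQP21 1 to 4. Sorted from high to low, the 8 libraries stood in the same order for both measures except that Saline 1 and Saline 2 changed places. Each of the 6 was lower on average in TLQP21 than in Saline by its fitted value, and none was at 0 reads in any library. With the level of these genes as a covariate, chosen after seeing the data, the log2 fold change of Cdkn1a was -0.05 (SE 0.10), and with the level of the immediate-early and heat-shock genes it was -0.35 (SE 0.18). The neutrophil sum itself was 679 ± 287 CPM in Saline and 382 ± 121 in TLQP21 (SD, n = 4 per group). A fit with the neutrophil level as a covariate therefore cannot tell treatment and neutrophil content apart, for Cdkn1a or for any other gene. The 5 genes whose standardised profile over the 8 libraries lay nearest to that of Cdkn1a were the adenosine receptor gene Adora2b (mean absolute difference 0.122), the ubiquitin ligase gene Rnf149 (0.136), the neutrophil chemokine gene Cxcl5 (0.163), the TNF receptor gene Tnfrsf1b (0.167) and the matrix protease gene Mmp9 (0.169). Over all tested genes the median difference was 1.06. Among the other members Pmaip1 was nearest at 0.558 and Ccng1 farthest at 1.28.

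**Figure D2:**
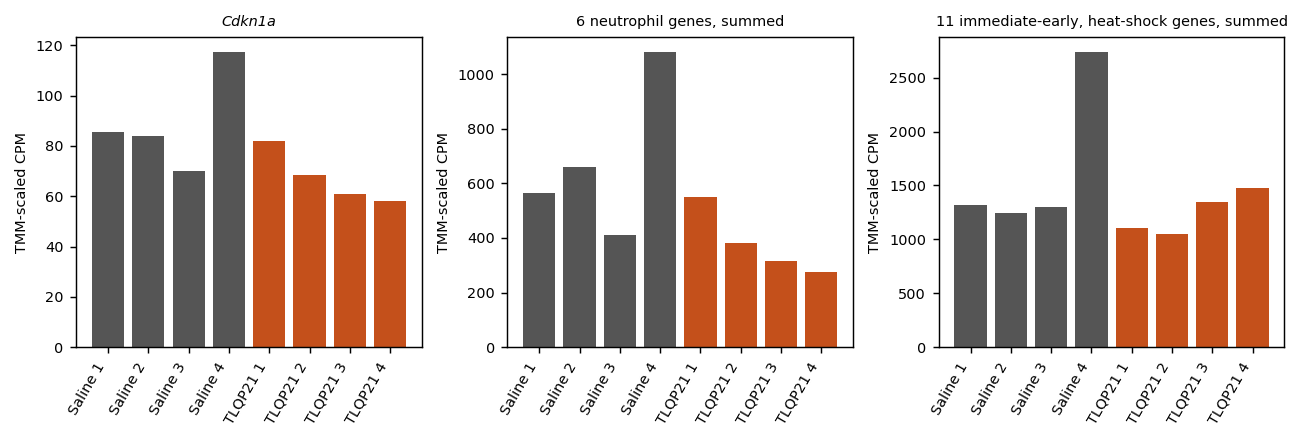
TMM-scaled CPM (vertical axes, from 0) by library of Cdkn1a, of 6 neutrophil genes summed and of 11 immediate-early and heat-shock genes summed, with Saline bars in grey and TLQP21 bars in orange. Saline 4 is highest in all 3 panels, and TLQP21 4 is lowest for Cdkn1a (57.9 CPM) and the neutrophil genes (277 CPM).

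Mdm2, which encodes the ligase that marks p53 for degradation, was at 66.3, 61.5, 58.7 and 70.5 CPM in Saline 1 to 4 and at 61.2, 51.3, 55.7 and 69.4 CPM in TLQP21 1 to 4. The ranges overlapped, and library 4 was the highest of each group. Fitted as a log2 fold change, the difference was -0.11 (SE 0.11, interval 0.780-fold to 1.10-fold). It stayed below 0 in each of the 24 settings, the lowest value with a library left out being -0.20 without TLQP21 4 and the highest -0.05 without TLQP21 2. In the remaining settings it ran from -0.25 with limma's voom to -0.02 (SE 0.14) with the neutrophil covariate, where it was within its SE of 0. Of the 10 members, Mdm2 and Cdkn1a were the only ones whose direction no setting turned.

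Ccng1 encodes cyclin G1, a partner of a phosphatase that acts on MDM2. It was at 96.6, 88.8, 96.8 and 94.0 CPM in Saline 1 to 4 and at 81.1, 78.8, 96.8 and 111 CPM in TLQP21 1 to 4. The Saline libraries lay close together, and TLQP21 spread on both sides of them. Its log2 fold change was -0.03 (SE 0.11). As a difference of mean log2 CPM it was -0.21 among libraries 1 and 2 and 0.12 among libraries 3 and 4. The interaction did not pass edgeR's test (0.33, SE 0.16, unadjusted p = 0.0728, adjusted p = 0.851). The direction of the log2 fold change turned without TLQP21 1 (0.02) and without TLQP21 2 (0.03).

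Phlda3, which encodes a pleckstrin-homology protein that holds back AKT signalling, was at 61.5, 60.8, 66.0 and 79.8 CPM in Saline 1 to 4 and at 65.5, 65.5, 82.7 and 54.0 CPM in TLQP21 1 to 4. Saline 4 and TLQP21 3 were the high libraries and TLQP21 4 the low one. Between the groups the log2 fold change was 0.00 (fitted value -0.0021, SE 0.14), with an interval from 0.807-fold to 1.23-fold. Without TLQP21 4 it was 0.08, without Saline 4 0.09 and without both 0.17.

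Zmat3, an RNA-binding zinc finger protein that acts in tumour suppression, was at 23.9, 23.99, 15.8 and 21.5 CPM in Saline 1 to 4 and at 22.9, 23.3, 20.6 and 23.3 CPM in TLQP21 1 to 4. Only Saline 3 fell clearly below the other 7 libraries. On the log2 scale the difference was 0.08 (SE 0.14), and without Saline 3 it was -0.04.

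Eda2r, a receptor of ectodysplasin A2 and a member of the TNF receptor family, had few reads (135 to 187 per library) and the smallest spread of the 10 genes. Its level was 5.34, 4.73, 4.63 and 5.41 CPM in Saline 1 to 4 and 4.99, 5.38, 4.91 and 4.66 CPM in TLQP21 1 to 4. The groups covered almost the same range. The gene lies on the X chromosome, and libraries with Xist (4.73 to 5.38 CPM) and with Y-linked transcripts (4.63 to 5.41 CPM) overlapped as well. For Eda2r the log2 fold change was -0.01 (SE 0.16, interval 0.776-fold to 1.27-fold). The SD of its log2 CPM over the 8 libraries was 0.09, higher than that of 5.81% of tested genes.

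The members that act in cell death are Bax, which opens the outer mitochondrial membrane, Bbc3 (PUMA) and Pmaip1 (NOXA), BH3-only proteins that free or activate it, and Aen, a nuclease. Bbc3 showed the greatest spread of all members, with a log2 SD of 0.93 over the 8 libraries, above that of 96.3% of tested genes. It was at 9.43, 12.8, 10.6 and 14.3 CPM in Saline 1 to 4 and at 13.4, 12.7, 11.2 and 1.98 CPM in TLQP21 1 to 4. TLQP21 1 to 3 lay inside the Saline range, and TLQP21 4 alone lay far below it, with 64 reads (exact Poisson 95% interval 49.3 to 81.7, counting error only) against 277 to 442 in the other libraries. The log2 fold change was -0.26 (SE 0.48, interval 0.390-fold to 1.78-fold), and without TLQP21 4 it was 0.08.

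Bax was at 42.3, 44.4, 43.3 and 47.7 CPM in Saline 1 to 4 and at 45.4, 41.9, 45.3 and 24.5 CPM in TLQP21 1 to 4. All libraries but TLQP21 4 stood between 41.9 and 47.7 CPM. For Bax the log2 fold change was -0.18 (SE 0.18), and without TLQP21 4 it was -0.01. Aen was at 28.9, 28.9, 24.8 and 29.1 CPM in Saline and at 32.1, 31.9, 29.0 and 20.9 CPM in TLQP21. Again TLQP21 4 was the lowest library, while TLQP21 1 and 2 were above all Saline libraries. For Aen the log2 fold change was 0.03 (SE 0.14), and without TLQP21 4 it was 0.15.

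These 3 genes differed in how they stood against genes of like GC content in TLQP21 4. The longest transcript of Bax has 63.5% GC, and in TLQP21 4 Bax was 0.85 (log2) below the mean of the other 7 libraries. The median of 285 genes within 2 points of its GC content was -0.88, with 52.98% of them lower than Bax. Bbc3, at 65.2% GC, was at -2.56 in TLQP21 4, where 130 genes of like GC content had a median of -1.02 and 3.08% of them were lower. Phlda3, at 62.6% GC, was at -0.34 against a median of -0.77. Aen, at 51.6% GC, was at -0.48 against -0.06, and Cdkn1a, at 54.4%, at -0.46 against -0.21. Ccng1, Pmaip1, Mdm2 and Zmat3, at 40.8 to 47.6% GC, were 0.11 to 0.29 above the other libraries there, close to the medians of genes of like GC content (0.11 to 0.31). Eda2r, at 40.9% GC, was at -0.11 against 0.30.

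After offsets for GC content in each library, chosen after seeing the data, Bax in TLQP21 4 was at 5.24 log2 CPM, against 5.31 to 5.44 in the other libraries. Bbc3 in TLQP21 4 was then at 1.66 log2 CPM, against 3.28 to 3.65 in the others. The log2 fold changes with these offsets were -0.08 for Bax, -0.24 for Bbc3 and -0.37 for Cdkn1a. No member passed the test in that fit.

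**Figure D3:**
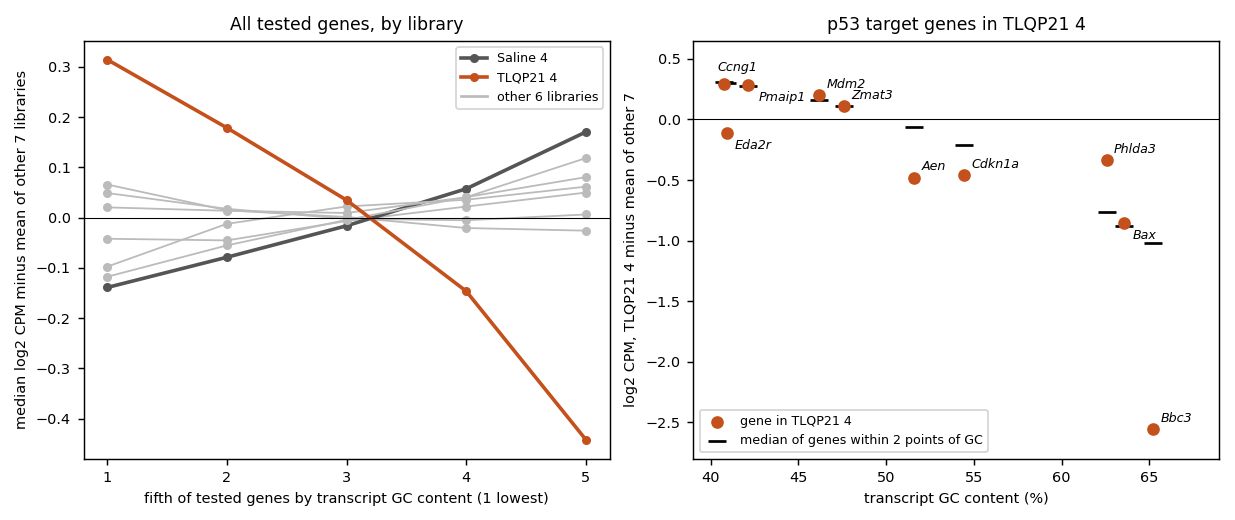
Left, median log2 CPM of each library minus the mean of the other 7 (vertical axis) in 5 bins of tested genes by transcript GC content (horizontal axis); right, the same difference in TLQP21 4 for each of the 10 members (points) against GC content in percent, with the median of genes within 2 points of GC (bars). TLQP21 4 runs from 0.31 in the lowest bin to -0.44 in the highest, Bax lies at the median of genes of like GC content, and Bbc3, at -2.56, lies below it.

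Pmaip1 was at 64.7, 61.8, 58.1 and 92.6 CPM in Saline 1 to 4 and at 59.3, 58.8, 43.9 and 74.8 CPM in TLQP21 1 to 4. Library 4 was the highest of each group, and TLQP21 3 was the lowest of all. The log2 fold change was -0.23 (SE 0.18, interval 0.645-fold to 1.13-fold). Without Saline 4 it was -0.06, without TLQP21 4 -0.36, and with the immediate-early and heat-shock level as a covariate -0.11. The part of Saline 4's immediate-early and heat-shock genes in the level of Pmaip1 was not otherwise tested.

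Across the members, Saline 4 was the highest library for 6 of 10 genes (Cdkn1a, Mdm2, Eda2r, Bax, Bbc3 and Pmaip1), and TLQP21 4 the lowest for 5 (Cdkn1a, Phlda3, Bax, Bbc3 and Aen) and the highest for Ccng1. The median log2 fold change of the 10 genes was -0.07, from -0.41 to 0.08, against 0.00 (0.0020) over all tested genes. Of the 10, 8 lay below 0, where 49.4% of all tested genes did. Without TLQP21 4, 5 lay below 0, without Saline 4 and TLQP21 4 there were 4, and with the neutrophil covariate also 4. No member passed an adjusted p of 0.05 in edgeR's test, where 0 of 18238 genes did (0.0%). At an unadjusted p under 0.05, Cdkn1a alone lay lower and no member higher, against 2.09% and 0.762% of all tested genes. DESeq2 called 4 genes and limma's voom 1, no member among them. No member had groups without overlap, against 1.66% of all tested genes (0.844% lower and 0.811% higher in TLQP21). The 95% interval excluded a 2-fold change either way for 9 members, Bbc3 being the exception, and for 14483 of the 18238 tested genes.

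**Figure D4:**
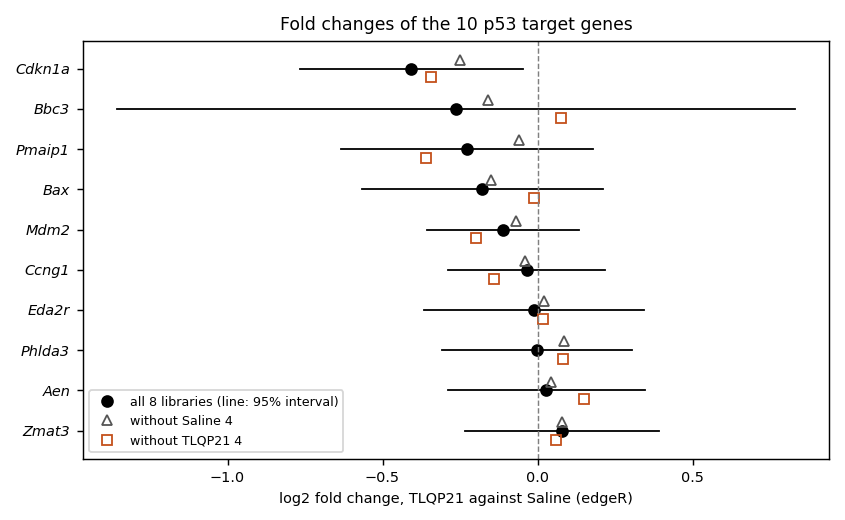
Log2 fold change of each member, TLQP21 against Saline (horizontal axis), with its 95% interval (line), and the value without Saline 4 (triangle) and without TLQP21 4 (square). Cdkn1a stays below 0 in all 3 (-0.41, -0.25 and -0.34), and Bbc3 moves from -0.26 to 0.08 without TLQP21 4.

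Genes that act on p53 differed little between the groups. Trp53 itself was at 119, 117, 136 and 136 CPM in Saline 1 to 4 and at 133, 140.4, 141 and 126 CPM in TLQP21 1 to 4. The ranges overlapped (log2 fold change 0.09, SE 0.09), and the counts do not tell mutant from normal transcripts. Cdkn2a, whose locus encodes the MDM2 inhibitor ARF and the kinase inhibitor p16, was at 245 ± 21.8 and 264 ± 49.99 CPM (0.11, SE 0.14). Mdm4, an MDM2 relative that blocks p53, was at 211 ± 21.6 and 212 ± 13.6 CPM (0.01, SE 0.10). The p53 phosphatase gene Ppm1d, itself a p53 target, was at 14.5 ± 1.203 and 15.03 ± 1.10 CPM, the checkpoint kinase gene Chek2 at 27.0 ± 1.82 and 30.5 ± 5.04, and the p53 kinase gene Hipk2 at 46.9 ± 5.88 and 45.1 ± 3.86 (log2 fold changes 0.05, 0.18 and -0.06). Without TLQP21 4 the value of Chek2 was 0.06, that of Ppm1d 0.01 and that of Hipk2 -0.12. Of 15 listed regulators 13 were tested and none passed the threshold, with a median log2 fold change of 0.06. Above 0 lay 12 of the 13, against 9221 of all 18238 tested genes. Without TLQP21 4, 5 regulators lay above 0. The p53 relatives Trp63 (4 to 28 reads per library) and Trp73 (0 to 4) were too low to test.

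Of 25 other p53 targets, all tested, 15 lay below 0, against 49.4% of all tested genes, and none passed the threshold (median -0.01). Gadd45a, a growth arrest and DNA damage gene, was at 49.4, 51.1, 38.6 and 57.2 CPM in Saline 1 to 4 and at 40.5, 38.0, 41.0 and 37.1 CPM in TLQP21 1 to 4. Saline 3 was as low as the TLQP21 libraries, and the other Saline libraries were above them (log2 fold change -0.33, SE 0.12, adjusted p = 1.0 by edgeR). The death receptor gene Fas was at 19.4 ± 3.63 and 14.4 ± 3.66 CPM (-0.42, SE 0.20). With the neutrophil level as a covariate the log2 fold change of Gadd45a was -0.11 and that of Fas -0.09. Gdf15, a stress-induced cytokine, was at 9.14 ± 6.19 and 5.395 ± 0.571 CPM (-0.76, SE 0.38). Saline 4 had 18.3 CPM of Gdf15 and the other Saline libraries 4.56 to 7.11, and without Saline 4 the log2 fold change was -0.18.

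Of 14 other BCL2 family genes tested, 11 lay below 0 (median -0.12), against 49.4% of all tested genes, and none passed the threshold. Mcl1, a protein that keeps cells alive by binding BH3-only proteins such as NOXA, was at 520, 482, 507 and 643 CPM in Saline 1 to 4 and at 468, 425, 477 and 451 CPM in TLQP21 1 to 4. Every TLQP21 library lay below every Saline library, by 4.74 CPM at the nearest pair (-0.24, SE 0.11, adjusted p = 1.0 by edgeR). Of all tested genes 0.844% were separated in this direction. Bcl2l11 (BIM), another BH3-only gene, was at 80.5 ± 9.89 and 68.3 ± 5.10 CPM (-0.24, SE 0.11). Bcl2a1d was at 21.7 ± 3.65 and 16.4 ± 4.73 CPM (-0.40, SE 0.20), with reads that may be split among its near-identical copies. Without Saline 4 the log2 fold change of Mcl1 was -0.15. With the neutrophil covariate it was -0.09 for Mcl1, -0.11 for Bcl2l11 and -0.17 for Bcl2a1d. The remaining listed gene, Hrk, had 0 to 3 reads per library.

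Downstream of p21, of 16 genes of the passage from G1 to S phase 11 lay below 0 (median -0.04) and none passed. Of all tested genes 49.4% lay below 0. The cyclin gene Ccnd3 was at 98.7 ± 12.3 and 81.4 ± 16.1 CPM, the inhibitor gene Cdkn2d at 16.3 ± 2.94 and 13.6 ± 2.71, and E2f1, the factor released by cyclin-dependent kinases, at 29.5 ± 5.13 and 25.5 ± 4.41 (log2 fold changes -0.28, -0.26 and -0.21). Each of these 3 was highest in Saline 4 and lowest in TLQP21 4. Without both libraries the values were -0.06 for Ccnd3, -0.0052 for Cdkn2d and 0.01 for E2f1. Without Saline 4 alone they were -0.19, -0.13 and -0.10, and without TLQP21 4 alone -0.15, -0.13 and -0.10. All 13 genes of G2 phase and mitosis, a class that p53 represses through p21, lay above 0 (median 0.17). Of all 18238 tested genes 9221 did. None of the 13 passed the threshold, and a part of p21 in their levels was not tested. Aurka, a mitotic kinase gene, was at 33.5, 28.7, 36.6 and 36.1 CPM in Saline 1 to 4 and at 38.0, 36.7, 44.6 and 42.4 CPM in TLQP21 1 to 4. Every TLQP21 library lay above every Saline library, by 0.0913 CPM at the nearest pair (0.26, SE 0.11, adjusted p = 1.0 by edgeR). Of all tested genes 0.811% were separated in this direction. The phosphatase gene Cdc25c was at 8.44 ± 1.01 and 11.3 ± 2.41 CPM (0.43, SE 0.18) and the spindle checkpoint gene Bub1 at 43.3 ± 5.00 and 53.9 ± 16.3 (0.31, SE 0.19), with 75.7 CPM of Bub1 in TLQP21 4. Without TLQP21 4 the log2 fold change of Bub1 was 0.10 and that of Cdc25c 0.32. With the neutrophil covariate the values were 0.16 and 0.25. With each library left out in turn, 10 to 13 of these 13 genes lay above 0.

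**Figure D5:**
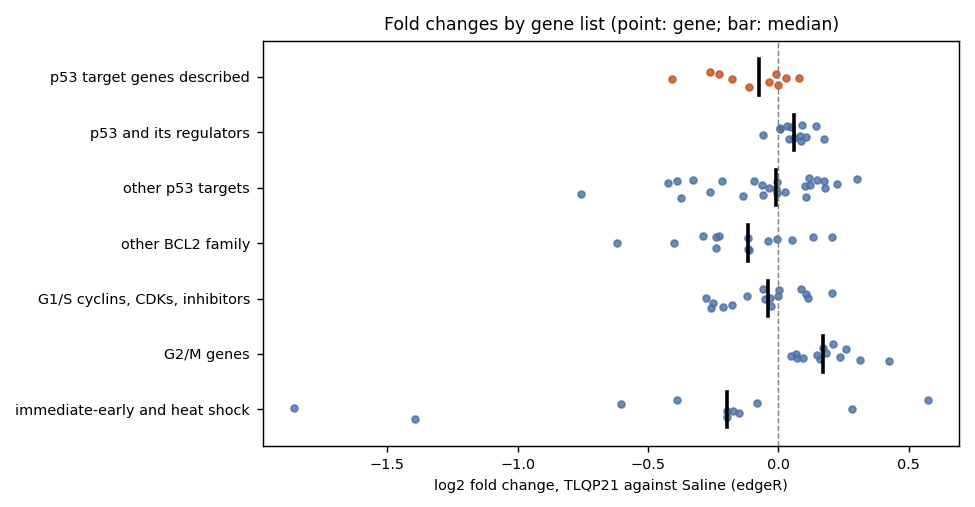
Log2 fold change, TLQP21 against Saline (horizontal axis), of the 10 members and of 6 lists of pathway genes (points) with the median of each list (bars). The 13 genes of G2 phase and mitosis all lie above 0, as do 9221 of all 18238 tested genes. The members have a median of -0.07 and the regulators of p53 one of 0.06.

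The 11 immediate-early and heat-shock genes are given because they mark the state of a tissue at harvest. Of these, 9 lay below 0 (median -0.20), against 49.4% of all tested genes. The factor gene Junb was at 504 ± 57.8 and 386 ± 118 CPM (-0.39, SE 0.21), and the chaperone gene Dnajb1 was at 95.9 ± 54.0 and 63.1 ± 4.17 (-0.60, SE 0.32). Without TLQP21 4 the log2 fold change of Junb was -0.21 and without Saline 4 as well -0.12, while that of Dnajb1 was -0.14 without Saline 4. Hspa1a, a heat-shock protein gene with a near-identical copy, was at 285 CPM in Saline 4 and at 14.7 to 44.3 in the other libraries. Without Saline 4 the log2 fold change of Hspa1a was -0.10, against -1.86 with it, and 5 of the 11 genes lay below 0.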

How the data were processed

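RNA sequencing of 8 tumour libraries (NEBNext Ultra kit, paired ends of 150 bp, per the labels' protocols) was deposited by the authors as raw read counts for 54532 genes. The submitters' processing notes name GRCm38 (mm10) and the tools DESeq2 1.32.0, HISAT2 2.0.5 and featureCounts 1.5.0-p3. The strand setting and annotation release are not given in the sources used here. Groups and replicate numbers were taken from the sample titles. The test was that of edgeR 4.0.16 under R 4.3.3 (default low-count filter by group, TMM scaling, robust quasi-likelihood test of TLQP21 against Saline, Benjamini-Hochberg adjustment over 18238 genes, threshold 0.05). DESeq2 1.42.0 and limma 3.58.1 were run as alternatives. Log2 CPM used a prior count of 2, and TPM the deposited gene lengths, another value given by the authors. GC content was that of the longest GENCODE M21 transcript. The fitting script was tested on simulated data with 4 libraries per group. It recovered 3 of 50 genes changed 1.5-fold (6%), 29 of 50 changed 2-fold (58%) and 42 of 50 changed 4-fold (84%). It also called 12 unchanged genes. Changes of 1.5-fold were therefore mostly missed at this threshold.

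The members and lists were chosen with earlier results of these data known. Named genes were the 10 members, 6 of the 13 tested regulators of p53 (picked by role with their values known), and the 3 genes of each other list with the smallest p. These 31 were carried through the other settings. The 5 genes nearest to Cdkn1a and the 5 nearest to the mean of the members were named in addition and were not. No pair of libraries was alike within sampling noise (lowest chi-square per degree of freedom 20.95). Intervals on reads cover counting error only.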

Additional observations from a re-analysis of the deposited data

Results flagged for a closer look

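In each group of 4 libraries the gap of the highest or lowest library to its neighbour was set against the whole range, on the CPM and on the log2 CPM scale, for 31 genes. Of 62 groups, 5 had a library past Dixon's critical value on at least 1 scale. On 1 scale chance flags about 1 in 20 groups. A group counted here if it was flagged on either of 2 scales, so the chance share can be higher, and it was not computed. All groups also come from the same libraries.

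Bax in TLQP21 4, at 24.5 CPM (4.62 log2 CPM), lay far below the other TLQP21 libraries, with a gap of 0.833 of the range on the CPM scale. Bbc3 in TLQP21 4 stood apart on the log2 scale alone, at 1.03 log2 CPM, with a gap of 0.902. GC-rich genes had low counts in that library, as given with the results of these genes. Bax lay near the median of genes of like GC content there (-0.85 against -0.88), while Bbc3 lay below it (-2.56 against -1.02).

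Aen in Saline 3, at 24.8 CPM (4.63 log2 CPM), lay below 3 Saline libraries that were within 0.27 CPM of each other. Zmat3 in TLQP21 3, at 20.6 CPM (4.37 log2 CPM), lay below 3 TLQP21 libraries that were within 0.374 CPM of each other. Hspa1a in Saline 4 was at 285 CPM, with a gap of 0.925 on the CPM scale.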

How the results depend on the processing

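Under 24 other settings no member passed the threshold, and 16 of 31 named genes kept their direction in each. Of the members these were Cdkn1a and Mdm2. Among the settings, an adjusted p threshold of 0.1 reused the main fit, so no direction could turn there. The count of genes called was 1 without the low-count filter, 4 with DESeq2, 1 with limma's voom and 0 in the other settings. Members below 0 numbered 8, and 5 with voom, 4 with the neutrophil level as a covariate and 4 without Saline 4 and TLQP21 4; with each library left out in turn they numbered 5 to 10. Regulators of p53 above 0 numbered 12, and 6, 5 and 5 in those 3 settings, with 5 to 12 with libraries left out. The same range was 7 to 12 for G1/S genes below 0 and 5 to 11 for immediate-early and heat-shock genes below 0, which numbered 4 with the neutrophil covariate. The replicate block changed no call, with 0 genes past the threshold, 8 members below 0 and -0.39 for Cdkn1a. Correlations of the deviations of same-numbered libraries were 0.11, 0.19, 0.27 and -0.05. No Saline library correlated best with the TLQP21 library of its own number. Such correlations cannot tell whether equal numbers mark a shared day or batch, which the labels do not give. Directions turned as follows, and their causes were not tested. With voom, Phlda3 was 0.083, Eda2r 0.060, Bbc3 0.084 and Mdm4 -0.035. With the neutrophil covariate, Phlda3 was 0.12, Eda2r 0.062, Bbc3 0.076, Pmaip1 0.0048, Mdm4 -0.13, Gdf15 0.16, Dnajb1 0.11 and Hspa1a 0.71. With the immediate-early covariate, Ccng1 was 0.0059, Phlda3 0.045, Aen -0.032 and Mdm4 -0.00348. With upper-quartile scaling Phlda3 was 0.011 and Eda2r 0.00298, and with library totals 0.028 and 0.016. Phlda3 was 0.00299 with the Xist split as a covariate, 0.00254 with protein-coding genes only and 0.14 with GC offsets, where Mdm4 was -0.045. Without Saline 4 and TLQP21 4, Phlda3 was 0.17, Eda2r 0.051, Bax 0.021, Bbc3 0.18, Mdm4 -0.10 and E2f1 0.010. With each library left out in turn, log2 fold changes ran from -0.033 to 0.15 for Aen, -0.45 to 0.076 for Bbc3, -0.14 to 0.032 for Ccng1, -0.0038 to 0.20 for Cdkn2a, -0.049 to 0.021 for Eda2r, -0.058 to 0.055 for Mdm4, -0.12 to 0.086 for Phlda3, -0.0081 to 0.092 for Ppm1d and -0.040 to 0.14 for Zmat3. The covariate of neutrophil genes, the GC offsets and the fit without 2 libraries were chosen after seeing the data. Summed over the libraries, Eda2r had the fewest reads of the members (1202).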

Other observations

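The 5 genes nearest to the mean standardised profile of the 10 members were Rab44 (mean absolute difference 0.167), Draxin (0.178), the folliculin gene Flcn (0.184), Plekhf1 (0.186) and the chaperone gene Dnaja1 (0.189). Saline and TLQP21 levels of Dnaja1 were 207 ± 40.3 and 169 ± 21.3 CPM (SD, n = 4 per group), and Flcn at 57.9 ± 8.21 and 50.9 ± 6.61. All 5 had log2 fold changes below 0, from -0.50 for Rab44 to -0.19 for Flcn, and an adjusted p above 0.05 in edgeR's test. They were picked for nearness to the members' profile, so their shared direction follows from that choice.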
